A study of Mus musculus with 6 samples.

Results

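The collagen family of the obstructed mouse kidney is described here at the level of messenger RNA. Its members were taken as every row of the deposited expression table whose symbol reads Col, a type number, the letter a and a chain number, which gave 44 chains among 18849 genes. They were sorted into 11 fibrillar chains, 9 network chains (types IV, VIII and X), 9 FACIT chains (fibril-associated collagens with interrupted triple helices), 6 beaded-filament chains (type VI) and 9 chains of other kinds. RNA sequencing was run on whole kidney of male C57BL/6 mice aged 8 weeks, with UUO (unilateral ureteral obstruction, the tying of a ureter) kept up for 14 days in all animals. The 3 control libraries came from c-Abl flox/flox mice, called floxed here, whose genotype label reads WT although the design text describes loxP-flanked alleles. The 3 knockout libraries came from c-Abl Epi-cKO mice, in which Ksp-Cre deletes the kinase gene Abl1 (c-Abl), and their genotype label reads c-Abl knockdown. Ksp-Cre is driven by the promoter of the kidney-specific cadherin gene Cdh16 and is active in tubule epithelium, whereas the RNA came from the whole kidney with its interstitial cells. The labels do not say whether each library stands for a separate mouse, and p-values then measure only the spread between libraries, which may be technical. No kidney without obstruction was analysed here.

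Collagens are trimers of chains wound into a triple helix. Fibrillar types I, III and V build the cable-like fibrils of scar tissue and are made mainly by fibroblasts and pericytes. Type IV forms the sheet of basement membranes, in which the chains a1 and a2 are found under nearly all epithelia and vessels, whereas a3, a4 and a5 form a separate network in the glomerular filter and beneath parts of the tubule. FACIT chains decorate fibrils, type VI makes beaded microfilaments around cells, and types XV and XVIII carry glycosaminoglycans in or next to basement membranes.

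RefSeq promoter windows (build GRCm38.p6, not the mm9 build of the expression values) were found for 35 of the 44 chains. The 250 bases before the start are printed for 4 chains that read lower in the knockout kidneys (Col1a2, Col3a1, Col5a1 and Col15a1) and for Col27a1, the tested fibrillar chain with the higher mean there, so that chains with unlike values can be set side by side. Capitals mark matches on either strand to CCAAT, to TATAA or to GGGCGG, and overlapping matches of TATAA and its reverse complement run together in Col3a1. The windows lie on the plus strand at chr6:4505368-4505617, chr1:45311288-45311537, chr2:27886175-27886424, chr4:47207762-47208011 and chr4:63215162-63215411, in this order.
Col1a2: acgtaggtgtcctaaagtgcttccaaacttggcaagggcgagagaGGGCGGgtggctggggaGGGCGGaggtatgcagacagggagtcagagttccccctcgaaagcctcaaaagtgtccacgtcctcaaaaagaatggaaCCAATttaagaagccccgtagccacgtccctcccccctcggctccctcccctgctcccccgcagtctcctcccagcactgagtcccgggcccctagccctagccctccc
Col3a1: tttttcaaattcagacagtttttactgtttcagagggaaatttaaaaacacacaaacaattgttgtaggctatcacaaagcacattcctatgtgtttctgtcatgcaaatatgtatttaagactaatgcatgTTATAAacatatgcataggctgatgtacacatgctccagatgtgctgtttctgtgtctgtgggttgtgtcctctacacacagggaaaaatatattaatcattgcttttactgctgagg
Col5a1: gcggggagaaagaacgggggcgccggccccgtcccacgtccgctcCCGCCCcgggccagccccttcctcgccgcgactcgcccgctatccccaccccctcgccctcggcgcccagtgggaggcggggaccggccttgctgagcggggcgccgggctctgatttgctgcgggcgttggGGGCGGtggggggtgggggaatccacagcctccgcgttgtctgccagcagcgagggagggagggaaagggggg
Col15a1: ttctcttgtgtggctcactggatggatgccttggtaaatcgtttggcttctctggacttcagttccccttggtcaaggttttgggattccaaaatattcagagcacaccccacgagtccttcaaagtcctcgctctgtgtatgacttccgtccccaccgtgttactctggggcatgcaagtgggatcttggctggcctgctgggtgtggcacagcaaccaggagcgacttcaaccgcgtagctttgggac
Col27a1: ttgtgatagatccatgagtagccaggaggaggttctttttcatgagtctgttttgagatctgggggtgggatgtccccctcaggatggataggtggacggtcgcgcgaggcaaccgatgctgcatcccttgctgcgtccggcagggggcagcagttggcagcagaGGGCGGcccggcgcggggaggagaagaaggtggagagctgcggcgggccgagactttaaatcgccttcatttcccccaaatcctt
Col1a2 held 1 CCAAT match and 2 GGGCGG matches, Col3a1 held only the TATAA matches, and Col15a1 held none of the 3 motifs. Col5a1 held 2 GGGCGG matches and Col27a1 held 1, so these letters did not separate the 4 lower chains from Col27a1. A match to GGGCGG was found in 57.9% of the 38 collagen windows and in 32.7% of all 32851 windows. For CCAAT the shares were 34.2% and 33.9%, and for TATAA 18.4% and 22.8%. A match is only a string of letters and shows no binding.

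The values are FPKM, fragment numbers scaled for gene length and for the depth of the library. The spacing of low values put the depth at about 16200000 to 18000000 fragments per library, and 1 FPKM in a transcript of 2 kb then stands for about 32.4 to 36.0 fragments. Abl1 read 18.16, 15.93 and 17.33 FPKM in the floxed libraries, against 10.46, 14.45 and 12.91 FPKM in the knockout ones, without overlap (limma adjusted p = 0.144). Cdh16, the kidney gene whose promoter drives the Cre, was at or above 201.33 FPKM in every library. It read 211.18, 201.33 and 234.95 FPKM in the floxed libraries, against 291.71, 391.45 and 280.81 FPKM in the knockout ones, without overlap (limma adjusted p = 0.118). Knockout replicate 3 stood apart from the other 2 knockout libraries. Its collagen values lay closer to the floxed level. Among the 27 chains tested it was the highest of the 3 knockout libraries in 19, a share not taken over all tested genes. The median log2 difference of these chains from the floxed mean was -0.93, -1.28 and -0.25 in knockout replicates 1, 2 and 3. Over all 13390 tested genes it was -0.23, -0.12 and -0.03. Replicate 3 was nearest the floxed level in both, but over all genes the 3 libraries lay closer together. Results are therefore also given without knockout replicate 3. Since that library was singled out by its values, the counts, fold changes and p-values without it add no support, also where a chain is said to pass. Values per library are always given in the order of replicates 1, 2 and 3.

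Most abundant collagen chains read lower in the knockout kidneys, and none passed the test over all genes. The test took genes that reached 1 FPKM in 3 or more of the 6 libraries, which left 27 of the 44 chains, and 3 of these (Col8a2, Col7a1 and Col17a1) did not reach 1 FPKM in all 3 knockout libraries. Log2 fold changes are knockout minus floxed of log2(FPKM + 1), a scale that shrinks differences of low genes. Of the 27 chains, 23 were below 0 and 4 above 0, with a median log2 fold change of -0.86 beside -0.12 over all 13390 tested genes, of which 65.4% were below 0. By limma with Benjamini-Hochberg adjustment 0 chains were lower and 0 higher at an adjusted p under 0.05, where 0.0373% of all tested genes were lower and 0.0299% higher, and the lowest adjusted p of a chain was 0.0556 (Col15a1). At an unadjusted limma p under 0.05, 14 of 27 chains were lower (all tested genes 16.3%) and 0 higher (all tested genes 8.38%). The knockout values lay wholly below the floxed values in 12 of 27 chains (all tested genes 21.7%) and wholly above in 0 (all tested genes 10.0%). Without knockout replicate 3, 19 of 27 chains were lower at an adjusted p under 0.05 (all tested genes 15.4%) and 0 higher (all tested genes 9.02%), and with weights per library estimated by limma, 10 were lower, where 1456 of 13390 genes passed in either direction. Col8a2 reached 1 FPKM in floxed libraries only and so had to be lower, and without it 13 of 26 chains were lower at an unadjusted p under 0.05, 11 of 26 without overlap, and 18 of 26 at an adjusted p without knockout replicate 3.

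**Figure D1:**
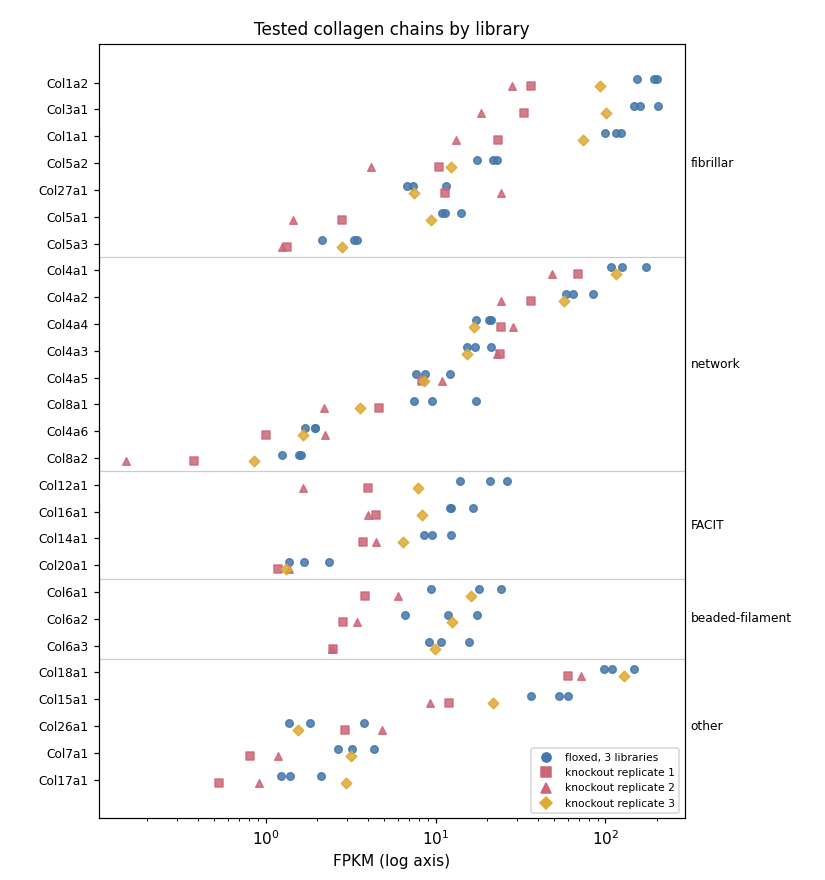
FPKM on a log axis for the 27 tested collagen chains, grouped by class, with 1 point per library. Circles are the 3 floxed libraries, squares, triangles and diamonds are knockout replicates 1, 2 and 3. Knockout replicates 1 and 2 lie far left of the circles for Col1a2, Col3a1 and Col1a1, with replicate 3 between, while the symbols mix for Col4a3, Col4a4, Col4a5 and Col26a1.

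The main fibrillar chains of scar tissue were 3.06-fold to 3.47-fold lower in mean in the knockout kidneys, and 5.65-fold to 6.60-fold lower without knockout replicate 3. Col1a1 and Col1a2 encode the chains of type I collagen, the chief fibril of scars, and Col3a1 encodes type III, its partner in young scar. Col1a1 read 98.83, 115.72 and 122.96 FPKM in the floxed libraries, against 23.43, 13.12 and 73.62 FPKM in the knockout ones. All 3 knockout values lay under the lowest floxed value, yet replicate 3 kept 65.4% of the floxed mean (log2 fold change -1.94, SE 0.549, limma adjusted p = 0.109). Col1a2 was the most abundant collagen chain of the series over the 6 libraries. It read 152.91, 193.16 and 202.35 FPKM in the floxed libraries, against 36.54, 28.19 and 93.09 FPKM in the knockout ones (log2 fold change -1.96, SE 0.412, limma adjusted p = 0.0687). Col3a1 read 148.1, 160.16 and 204.15 FPKM in the floxed libraries, against 33.21, 18.54 and 100.57 FPKM in the knockout ones (log2 fold change -2.06, SE 0.548, limma adjusted p = 0.0986). The order of the libraries was alike for the 3 genes, with knockout replicate 2 lowest and knockout replicate 3 highest of its group. Without knockout replicate 3 their log2 fold changes were -2.61, -2.46 and -2.72 for Col1a1, Col1a2 and Col3a1, with limma adjusted p of 0.00349, 0.00288 and 0.00351.

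The type V chains, which are built into type I fibrils and limit their width, were lower as well. Col5a2 read 17.5, 22.95 and 21.81 FPKM in the floxed libraries, against 10.47, 4.19 and 12.35 FPKM in the knockout ones (limma adjusted p = 0.109). Col5a1 read 10.93, 11.36 and 14.05 FPKM in the floxed libraries, against 2.82, 1.44 and 9.34 FPKM in the knockout ones (limma adjusted p = 0.133). Without knockout replicate 3 the fold for Col5a1 was 5.69 in place of 2.67. Neither chain overlapped between the groups, whereas the minor chain Col5a3 did, with means of 2.97 ± 0.704 and 1.80 ± 0.870 FPKM (SD, n = 3 per group). Col27a1, a fibrillar collagen best known from cartilage, ran the other way in part of the knockout libraries. It read 11.47, 7.33 and 6.76 FPKM in the floxed libraries, against 11.34, 24.31 and 7.47 FPKM in the knockout ones, so the higher knockout mean of 14.4 ± 8.82 against 8.52 ± 2.57 FPKM rested mostly on replicate 2 (log2 fold change 0.14 without it) and the groups overlapped (log2 fold change 0.57, SE 0.40, limma adjusted p = 0.394).

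**Figure D2:**
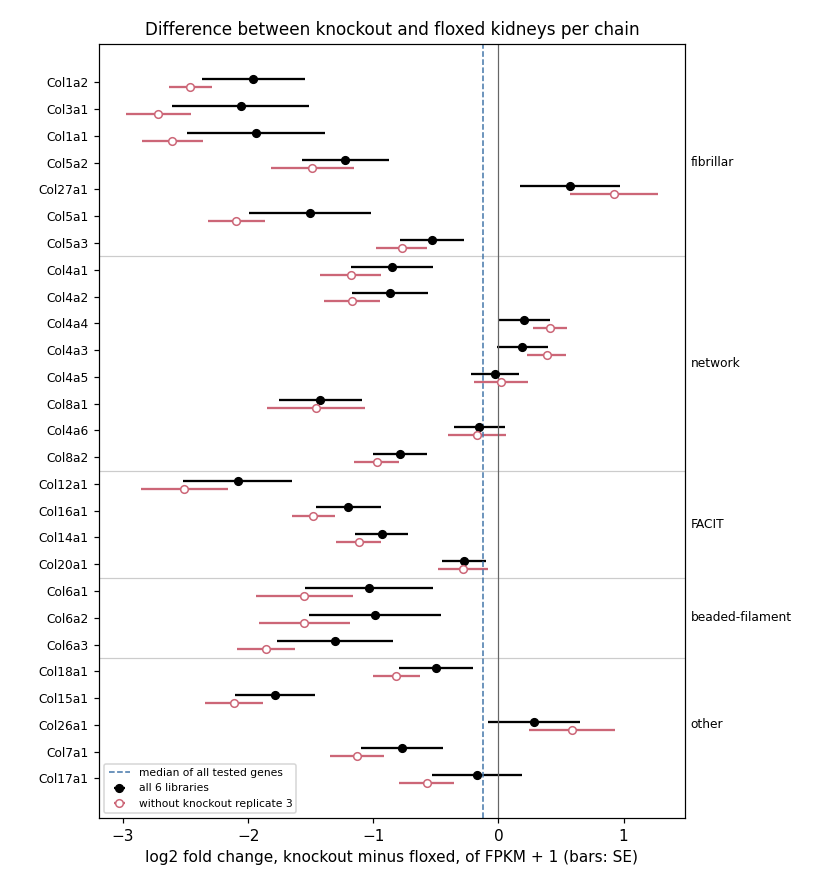
Log2 fold change of FPKM + 1, knockout minus floxed, for the 27 tested chains with bars of 1 SE. Filled points use all 6 libraries, open points leave out knockout replicate 3, and the dashed line is the median of all tested genes at -0.12. Most filled points lie left of the dashed line, down to -2.08 for Col12a1, and Col27a1 lies farthest right at 0.57.

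Within type IV collagen the chains of the general basement membrane and those of the a3, a4 and a5 network read differently in knockout replicates 1 and 2. In knockout replicate 3 they were alike, from 82.7% (Col4a2) to 90.0% (Col4a5) of the floxed mean. Col4a1 read 107.13, 125.91 and 173.65 FPKM in the floxed libraries, against 69.21, 48.51 and 115.91 FPKM in the knockout ones. Knockout replicate 3 lay inside the floxed range and the other 2 below it (log2 fold change -0.85, SE 0.329, limma adjusted p = 0.176). Col4a2, its partner, read 58.85, 64.39 and 84.07 FPKM in the floxed libraries, against 36.61, 24.2 and 57.15 FPKM in the knockout ones, without overlap (log2 fold change -0.86, SE 0.304, limma adjusted p = 0.151). Both chains passed as lower without knockout replicate 3 (limma adjusted p = 0.0204 for Col4a1 and 0.0163 for Col4a2). The 2 genes sit head to head, and their RefSeq starts overlap by 22 bases (GRCm38.p6, chr8:11312805-11312826). The ratio of Col4a2 to Col4a1 FPKM stayed between 0.484 and 0.549 in all 6 libraries, although the level of Col4a1 itself ranged from 48.51 to 173.65 FPKM. Strand use in counting is not given in the sources used here, and reads of overlapping ends cannot be told apart.

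Col4a3 and Col4a4, a second head-to-head pair whose products join Col4a5 in the glomerular filter, did not share the lower values of knockout replicates 1 and 2. Col4a3 read 17.09, 15.36 and 21.19 FPKM in the floxed libraries, against 24.02, 22.89 and 15.29 FPKM in the knockout ones (log2 fold change 0.19, SE 0.203, limma adjusted p = 0.571). Col4a4 read 21.17, 17.25 and 20.59 FPKM in the floxed libraries, against 24.36, 28.63 and 16.89 FPKM in the knockout ones (log2 fold change 0.21, SE 0.201, limma adjusted p = 0.531). In both, knockout replicates 1 and 2 lay above every floxed library and replicate 3 below every one. Col4a5 read 12.14, 7.7 and 8.68 FPKM in the floxed libraries, against 8.28, 10.85 and 8.56 FPKM in the knockout ones, and its log2 fold change of -0.02 (SE 0.191) changed sign with median-ratio and quantile scaling. Col4a6, at 1.87 ± 0.150 and 1.63 ± 0.610 FPKM, overlapped too. The summed FPKM of Col4a3, Col4a4 and Col4a5 was 0.304, 0.212 and 0.196 times that of Col4a1 and Col4a2 in floxed replicates 1, 2 and 3. In knockout replicates 1, 2 and 3 it was 0.535, 0.858 and 0.235 times, so replicate 3 lay within the floxed range.

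**Figure D3:**
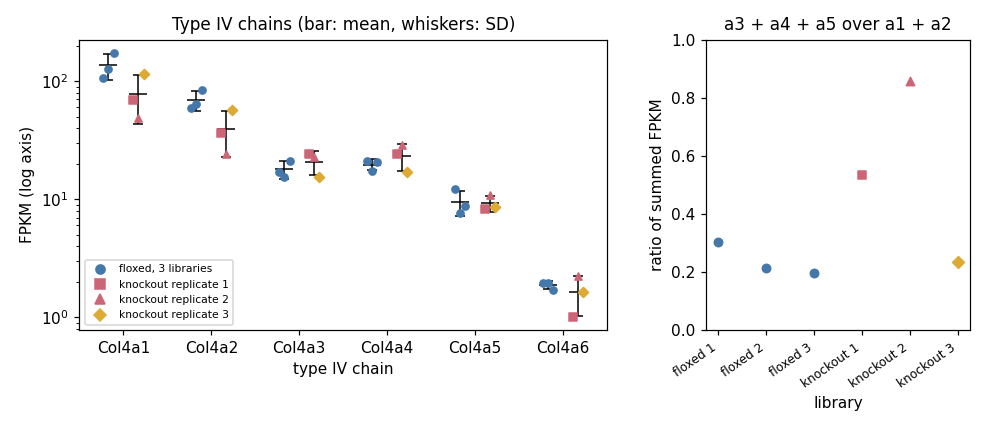
Left, FPKM on a log axis of the 6 type IV chains, with floxed libraries left and knockout libraries right at each chain, a bar at the mean and whiskers of 1 SD over 3 libraries. Right, the ratio of summed Col4a3, Col4a4 and Col4a5 to summed Col4a1 and Col4a2 in each library, which reached 0.535 and 0.858 in knockout replicates 1 and 2 and 0.235 in replicate 3.

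Of the short-chain type VIII collagens, Col8a1, found in vessel walls, had means of 11.4 ± 5.19 FPKM in floxed and 3.49 ± 1.23 FPKM in knockout libraries, 3.26-fold lower without overlap (log2 fold change -1.42, SE 0.330, limma adjusted p = 0.0810). Col8a2 read 1.25, 1.62 and 1.57 FPKM in the floxed libraries, against 0.38, 0.15 and 0.86 FPKM in the knockout ones, and it entered the test only through the floxed libraries, so its lower value is a description.

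The FACIT chains that coat fibrils were lower in each of the 3 abundant members. Col12a1 had the most negative log2 fold change of all tested chains. It read 14.02, 26.23 and 21.02 FPKM in the floxed libraries, against 3.99, 1.67 and 7.87 FPKM in the knockout ones, 4.53-fold lower in mean (7.22-fold without knockout replicate 3) and without overlap (log2 fold change -2.08, SE 0.437, limma adjusted p = 0.0687). Col16a1 read 12.31, 12.22 and 16.72 FPKM in the floxed libraries, against 4.45, 4.03 and 8.34 FPKM in the knockout ones (limma adjusted p = 0.0723). Col14a1 read 9.57, 8.59 and 12.28 FPKM in the floxed libraries, against 3.76, 4.45 and 6.44 FPKM in the knockout ones (limma adjusted p = 0.0759). In these 3 chains knockout replicate 3 also lay below the lowest floxed library, and each passed without it (limma adjusted p = 0.00697 for Col12a1, 0.00489 for Col16a1 and 0.0105 for Col14a1). Col20a1 read 2.35, 1.38 and 1.68 FPKM in the floxed libraries, against 1.18, 1.38 and 1.31 FPKM in the knockout ones, a tie between a floxed and a knockout library (limma adjusted p = 0.350).

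Type VI collagen overlapped between the groups. Its 3 main chains lay below every floxed library in knockout replicates 1 and 2, as did 41.5% of all tested genes, and not in replicate 3. These chains assemble together into beaded filaments. Col6a1 read 17.95, 9.42 and 24.26 FPKM in the floxed libraries, against 3.82, 6.04 and 16.15 FPKM in the knockout ones (log2 fold change -1.03, SE 0.511, limma adjusted p = 0.255). Col6a2 read 11.85, 6.57 and 17.44 FPKM in the floxed libraries, against 2.86, 3.45 and 12.45 FPKM in the knockout ones (limma adjusted p = 0.280). Col6a3 read 10.77, 9.1 and 15.71 FPKM in the floxed libraries, against 2.48, 2.45 and 9.96 FPKM in the knockout ones (limma adjusted p = 0.154). For all 3 chains knockout replicate 3 lay inside the floxed range, and floxed replicate 2 was the lowest of the floxed libraries. Without knockout replicate 3 the means were 3.49-fold, 3.79-fold and 4.81-fold lower for Col6a1, Col6a2 and Col6a3, with limma adjusted p of 0.0349, 0.0294 and 0.00553. The minor chain Col6a6 ran against the class at low level, with 0.07, 0.09 and 0.14 FPKM in the floxed libraries, against 1.97, 0.33 and 0.18 FPKM in the knockout ones. The groups did not overlap, but only 1 library reached 1 FPKM and the chain was not tested. Col6a4 read 0.28, 0.14 and 0.11 FPKM in the floxed libraries, against 0.12, 0.03 and 0.13 FPKM in the knockout ones.

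The multiplexins Col15a1 and Col18a1, both proteoglycans of the basement membrane zone, were unlike each other. Col15a1 read 36.5, 53.35 and 59.87 FPKM in the floxed libraries, against 11.99, 9.26 and 21.8 FPKM in the knockout ones. It was 3.48-fold lower in mean without overlap (log2 fold change -1.78, SE 0.319, limma adjusted p = 0.0556, and 0.00437 without knockout replicate 3). Col18a1, the precursor of endostatin, read 109.38, 98.7 and 147.02 FPKM in the floxed libraries, against 60.55, 71.38 and 128.95 FPKM in the knockout ones. Knockout replicate 3 lay inside the floxed range (log2 fold change -0.50, SE 0.297, limma adjusted p = 0.326, and 0.0279 without that library). Col7a1, which encodes the anchoring fibrils known from skin, read 4.37, 2.67 and 3.21 FPKM in the floxed libraries, against 0.81, 1.19 and 3.2 FPKM in the knockout ones (limma adjusted p = 0.207, and 0.0163 without knockout replicate 3). Col17a1, a membrane-spanning collagen of epithelial anchorage, read 1.39, 1.24 and 2.11 FPKM in the floxed libraries, against 0.53, 0.92 and 2.98 FPKM in the knockout ones. Its 3 knockout values thus lay on both sides of the floxed range (log2 fold change -0.17, SE 0.361, 0.03 with quantile scaling). Col26a1 read 3.79, 1.83 and 1.38 FPKM in the floxed libraries, against 2.93, 4.81 and 1.55 FPKM in the knockout ones, with overlap (limma adjusted p = 0.641).

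The other 17 chains did not reach the filter. Just inside it by their third-highest value stood Col8a2 at 1.25 FPKM and Col20a1 at 1.38 FPKM, and just outside it Col11a2 at 0.94 FPKM and Col10a1 at 0.76 FPKM. Col11a2 read 1.2, 1.37 and 0.94 FPKM in the floxed libraries, against 0.55, 0.67 and 0.41 FPKM in the knockout ones. Col10a1, a marker of growth plate cartilage, read 0.76, 0.27 and 0.88 FPKM in the floxed libraries, against 0.07, 0.06 and 1.26 FPKM in the knockout ones. Col9a3 read 0.84, 0.64 and 0.63 FPKM in the floxed libraries, against 0.22, 0.47 and 0.45 FPKM in the knockout ones. Col11a1, Col24a1, Col22a1, Col9a2, Col19a1, Col6a5, Col23a1, Col13a1, Col28a1 and Col25a1 stayed at or below 0.71 FPKM in every library, and of these Col11a1, Col9a2 and Col6a5 were lower without overlap. Over all 44 chains, untested ones included, 17 were lower and 1 higher without overlap, where 18.9% of 18660 genes taken without a filter were lower without overlap. The share that was higher without overlap was taken only over tested genes, at 10.0%. These counts take in chains under 1 FPKM, whose differences were not assessed. Col9a1, a cartilage chain, was listed at 0 in every library, and Col2a1, the main cartilage collagen, was at most 0.07 FPKM.

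The make-up of the collagen messenger RNA within a library does not depend on library scaling. All 44 chains together came to 912, 1000 and 1222 FPKM in floxed replicates 1, 2 and 3 and to 391, 345 and 745 FPKM in knockout replicates 1, 2 and 3. Fibrillar chains made up 48.8%, 51.5% and 47.2% of that sum in floxed replicates 1, 2 and 3 and 30.7%, 26.7% and 40.3% in knockout replicates 1, 2 and 3. The groups did not overlap, and the fibrillar share was lowest where the summed level was lowest. Network chains took 25.2% to 26.2% in floxed libraries and 43.1%, 40.5% and 29.7% in knockout replicates 1, 2 and 3. Type XV took 4.74% ± 0.679 of the sum in floxed and 2.89% ± 0.194 in knockout libraries, and type XVIII 11.3% ± 1.24 and 17.8% ± 2.64 (SD, n = 3 per group), neither with overlap. Shares within a library sum to a fixed whole, so a lower share of 1 class raises the others.

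**Figure D4:**
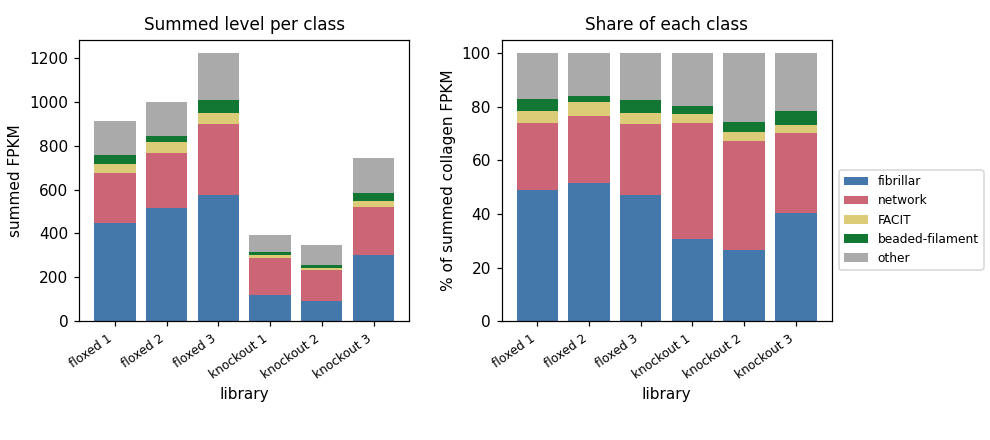
Stacked bars of the 5 collagen classes in each library, as summed FPKM (left) and as percent of the summed collagen FPKM (right). The fibrillar part runs from 47.2% to 51.5% in the floxed libraries and from 26.7% to 40.3% in the knockout libraries.

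Differences between chains were compared as the log2 ratio of FPKM + 1 within each library, for 10 pairs, by exact two-sided permutation tests. The smallest p that 3 against 3 libraries allow is 0.1, so no pair could pass, and the 4 pairs at that p had a Benjamini-Hochberg adjusted p of 0.25 over the 10 pairs. The ratio of Col4a1 to Col1a1 was 0.24 ± 0.217 in floxed and 1.33 ± 0.605 in knockout libraries on the log2 scale, without overlap (exact permutation p = 0.1). Col18a1 relative to Col15a1 was 1.24 ± 0.343 and 2.53 ± 0.287 without overlap (exact permutation p = 0.1), and leaving out knockout replicate 3 left the difference at 1.29. Col15a1 relative to Col4a1 was -1.42 ± 0.174 and -2.35 ± 0.0819 without overlap (exact permutation p = 0.1). Both Col15a1 ratios in knockout replicate 3 stood with those of the other knockout libraries, unlike its levels of most chains. Col5a1 relative to Col1a1 was -3.12 ± 0.108 and -2.69 ± 0.159 (exact permutation p = 0.1). The added 1 FPKM raised this ratio where Col5a1 was low, at 2.82 and 1.44 FPKM in knockout replicates 1 and 2. In plain FPKM the ratio of Col5a1 to Col1a1 overlapped between the groups. For the chains of type I, Col1a2 to Col1a1 stood at 0.69 ± 0.0584 in floxed and 0.67 ± 0.359 in knockout libraries, with close means and a wider spread among the knockout libraries (exact permutation p = 0.9), and Col3a1 to Col1a1 stood at 0.59 ± 0.131 and 0.47 ± 0.0206 (exact permutation p = 0.3). The other 4 pairs overlapped, with exact permutation p of 0.9 for Col4a2 to Col4a1 and of 0.2 for Col6a1 to Col1a1, Col4a3 to Col4a1 and Col4a5 to Col4a1.

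Many of the genes that fold, process and crosslink collagen read lower too. Of the 22 tested of 28 folding and processing genes, 0 passed at an adjusted p under 0.05 by limma, 11 were lower at an unadjusted p under 0.05, and 18 were below 0 (all tested genes 16.3% and 65.4%), with a median log2 fold change of -0.47. Without knockout replicate 3, 12 were lower and 1 higher past the adjusted limma threshold (all tested genes 15.4% and 9.02%), and 4 of 4 tested crosslinking genes were lower. Serpinh1 (HSP47), the chaperone that holds the procollagen helix, read 177.05, 257.04 and 272.39 FPKM in the floxed libraries, against 84.46, 72.78 and 123.73 FPKM in the knockout ones, without overlap (limma adjusted p = 0.0620). P3h3, a relative of the prolyl 3-hydroxylases, had means of 16.5 ± 1.49 and 6.82 ± 2.15 FPKM, and the foldase Fkbp10 15.9 ± 1.37 and 6.65 ± 3.24 FPKM. The prolyl 4-hydroxylase subunit P4hb, a protein disulphide isomerase that serves many other proteins, overlapped at 185 to 223 FPKM in floxed and 211 to 238 FPKM in knockout libraries. All 4 tested of the 5 lysyl oxidase genes, which crosslink fibrils, lay below the floxed range (all tested genes 21.7%), with 0 past the adjusted limma threshold and 4 at an unadjusted p under 0.05. Lox had means of 28.3 ± 6.29 and 8.86 ± 5.21 FPKM, Loxl2 14.7 ± 2.37 and 6.46 ± 3.18 FPKM, and Loxl3 6.67 ± 0.597 and 2.67 ± 1.06 FPKM.

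Collagen receptors and collagen-degrading enzymes had 0 members past the adjusted limma threshold. Of 9 tested of 11 receptors, 4 were lower at an unadjusted p under 0.05 (all tested genes 16.3%), and 6 past the adjusted threshold without knockout replicate 3 (all tested genes 15.4%). Ddr2, the discoidin receptor of mesenchymal cells, read 7.41, 8.5 and 12.6 FPKM in the floxed libraries, against 1.91, 2.31 and 3.52 FPKM in the knockout ones (limma adjusted p = 0.0547). Its epithelial relative Ddr1 overlapped, at 66.7, 74.7 and 66.99 FPKM in the floxed libraries, against 70.59, 71.61 and 89.76 FPKM in the knockout ones (limma adjusted p = 0.509). The endocytic receptor Mrc2 had means of 30.4 ± 3.84 and 9.59 ± 3.72 FPKM, and the integrin subunit Itga10 2.04 ± 0.380 and 0.813 ± 0.350 FPKM. Among degrading enzymes 5 of 6 tested of 7 were lower at an unadjusted p under 0.05, or 4 of 5 without Fap, which reached 1 FPKM in floxed libraries only. Past the adjusted threshold 3 were lower without knockout replicate 3. Cathepsin K (Ctsk) had means of 26.4 ± 5.07 and 8.30 ± 3.02 FPKM, the gelatinase Mmp2 23.1 ± 12.4 and 4.51 ± 2.23 FPKM, and the fibroblast protease Fap 1.60 ± 0.499 and 0.573 ± 0.0289 FPKM.

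Markers of collagen-making and other cells also differed between the groups. Over all tested genes 16.3% were lower and 8.38% higher at an unadjusted limma p under 0.05, and the counts for each list below are to be read against these shares. In bulk tissue, fewer cells of a type and less RNA per cell cannot be told apart. The 14 stromal markers other than collagens summed to 267 to 382 FPKM in floxed and 87.1 to 150 FPKM in knockout libraries. All 14 were below 0, 12 at an unadjusted limma p under 0.05, and 1 (Dpt) past the adjusted threshold (12 without knockout replicate 3, all tested genes 15.4%). Smooth muscle and pericyte markers summed to 216 to 320 and 92.0 to 199 FPKM (5 of 11 tested lower at an unadjusted p under 0.05), endothelial markers to 154 to 277 and 138 to 168 FPKM (2 of 10) and podocyte markers to 119 to 172 and 87.4 to 110 FPKM (6 of 8). Macrophage markers summed to 1781 to 2596 and 706 to 1350 FPKM (10 of 10). Of these, 1 (Ms4a7, limma adjusted p = 0.0446) was past the adjusted threshold, and 10 without knockout replicate 3. Tubule markers read the other way, with 9 of 12 proximal and 8 of 9 distal markers higher at an unadjusted p under 0.05. Distal markers summed to 604 to 801 and 865 to 1907 FPKM. Proximal markers summed to 4941 to 13673 and 4413 to 40657 FPKM, most of it the androgen-driven gene Kap, and without Kap, left out after its values were seen, to 558 to 833 and 1008 to 3500 FPKM. Of 8 markers of fat, muscle and mesothelium around the kidney only 2 reached the filter (sums 3.08 to 7.46 and 1.78 to 10.7 FPKM), and the fat markers Adipoq and Plin1 were at or near 0. The part of these shifts in the collagen values was not tested.

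Relative to the stromal markers the picture differed by chain. The sum of Col1a1, Col1a2 and Col3a1 was 1.35, 1.76 and 1.39 times the summed stromal markers in floxed replicates 1, 2 and 3 and 1.07, 0.624 and 1.78 times in knockout replicates 1, 2 and 3. The groups overlapped, since knockout replicate 3 was the highest of all libraries. Set against the pericyte and fibroblast receptor Pdgfrb alone, the same sum was 12.3, 16.0 and 15.1 times in floxed and 8.90, 7.43 and 11.9 times in knockout replicates 1, 2 and 3, without overlap. The sum of Col4a1 and Col4a2 was 0.562, 0.714 and 0.675 times the summed stromal markers in floxed and 1.22, 0.758 and 1.15 times in knockout replicates 1, 2 and 3, all above the floxed libraries. Dcn (means 80.0 FPKM in floxed and 30.8 FPKM in knockout libraries) and Tcf21 (82.2 and 19.6 FPKM) were the largest parts of the stromal sum. Whether the order of the libraries in either stromal ratio holds without Dcn and Tcf21 was not tested. Against the summed endothelial markers it overlapped, at 0.624 to 1.24 in floxed and 0.432 to 1.08 in knockout libraries. Summed Col4a3, Col4a4 and Col4a5 relative to summed podocyte markers stood at 0.294 to 0.339 in floxed and at 0.466 to 0.646 in knockout libraries, without overlap.

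**Figure D5:**
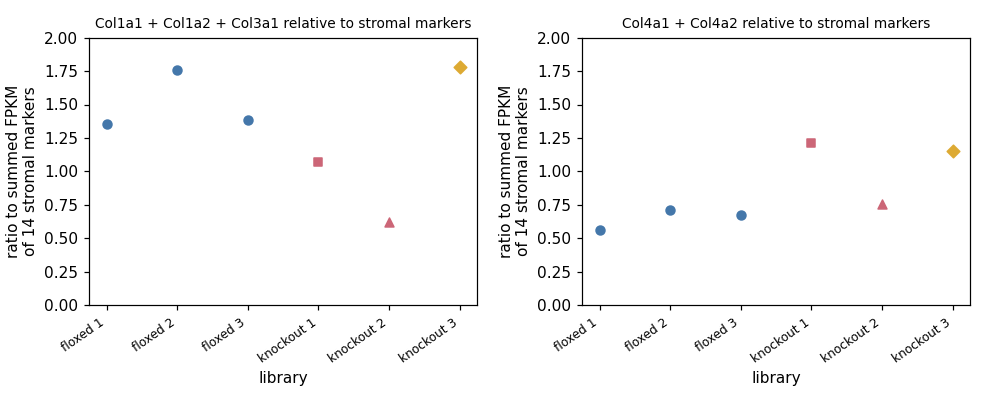
Ratio of summed Col1a1, Col1a2 and Col3a1 (left) and of summed Col4a1 and Col4a2 (right) to the summed FPKM of 14 stromal markers in each library. On the left knockout replicates 1 and 2 lie at 1.07 and 0.624, below the floxed libraries, and replicate 3 at 1.78; on the right the 3 knockout libraries lie between 0.758 and 1.22, above the floxed libraries.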

How the data were processed

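The authors deposited FPKM per gene for 6 whole-kidney libraries, per the file headers. The build named in the submitters' processing notes is mm9. Total RNA was taken with TRIzol and libraries followed an Illumina protocol, per the labels' protocols. For aligner, counter, annotation and filters the entry is: not given in the sources used here. Groups and replicate numbers come from the sample titles. FPKM is relative to all fragments of a library, so abundant genes move the rest.

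The members, gene lists and tests were chosen with earlier results of these data known. Genes reaching an FPKM of 1 in 3 or more of 6 libraries were compared with limma 3.58.1 in R 4.3.3 on log2(FPKM + 1), with a mean-variance trend, two-sided, and Benjamini-Hochberg adjustment over 13390 genes at 0.05. The script was tested on simulated data. Standard errors are limma's moderated ones. Pairs of chains were compared by exact permutation (scipy 1.17.1, statsmodels 0.14.6, Python 3.11.15). Depth was fitted to the spacing of low values in single-transcript genes of 300 to 2000 nucleotides, of which 65.2% to 67.4% lay within 0.2 of a whole fragment (40% for even spacing), so it is approximate. Of the symbols, 26 turned into dates were restored by Entrez identifier. Values in every library are given for 5 marker chains, the 5 most abundant chains of each class, the 3 largest log2 fold changes each way, any chain past the threshold (there was none) and the 2 chains on each side of the filter; others were shown where a class needed them. The 3 genes of smallest p stand for the folding, crosslinking, receptor and degrading lists. Marker lists of cells are given by sums and counts, with genes past the adjusted threshold named. P4hb, Ddr1, Pdgfrb, Kap, Dcn and Tcf21 were named after their values were seen. Alternatives covered pseudocount, filter, scaling, trend, array weights, a replicate block and leaving out each library. Counts without genes that reached 1 FPKM in floxed libraries only, and the alternatives for chains outside the naming rule, were added after seeing the data.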

Additional observations from a re-analysis of the deposited data

How the results depend on the processing

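No chain passed at an adjusted p under 0.05 with pseudocounts of 0.1 or 0.01, other filters, other scalings, no trend or the replicate block, and 10 passed with array weights, whose fit stopped short of its tolerance. Leaving out 1 library gave 0 to 19 chains, the 19 without knockout replicate 3 and 0 without any other. Chains lower without overlap numbered 12 to 20 when 1 library was left out, the 20 again without knockout replicate 3, where 41.5% of all tested genes were lower without overlap (23.2% to 27.6% without another library). The median log2 fold change of -0.86 was -0.31 without a filter, where 43 chains entered, and -0.66 to -1.17 when 1 library was left out. Median-ratio and quantile scaling moved the median of all tested genes from -0.12 to -0.01, and that of the chains to -0.75 and -0.80. Same-numbered libraries did not deviate together (correlations of -0.13, -0.07 and 0.03 across genes), so the numbers were not taken as pairs. With the replicate block 17 of 27 chains were lower at an unadjusted limma p under 0.05 (all tested genes 13.8%). Without the block 14 were (all tested genes 16.3%). The design is balanced, so the block leaves every log2 fold change as it was and no direction could differ. Of the 27 tested chains, 4 changed sign in some setting. Col4a5 stood at 0.0867 with median-ratio scaling, 0.12 with quantile scaling and 0.14 with array weights, and at -0.15 to 0.15 when 1 library was left out. Col17a1 stood at 0.0279 with quantile scaling and at -0.58 to 0.11 when 1 library was left out, and Col26a1 at -0.0081 to 0.59. Col4a6, at -0.15 with all libraries, stood at 0.0761 with quantile scaling and at -0.31 to 0.0274 when 1 library was left out. The cause was not tested. With 3 libraries per group and depth known only by estimate, differences in chains under 1 FPKM were not assessed.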

Other observations

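A few genes with collagen-like stretches fall outside the family by name and were looked at after the values were seen. Colec12, a scavenger receptor with a collagen-like domain, read 20.55, 30.57 and 30.66 FPKM in the floxed libraries, against 7.74, 6.6 and 11.62 FPKM in the knockout ones, without overlap (log2 fold change -1.56, SE 0.238, limma adjusted p = 0.0547). Emid1 read 9.07, 4.84 and 7.93 FPKM in the floxed libraries, against 2.9, 3.83 and 5.15 FPKM in the knockout ones, with overlap (limma adjusted p = 0.154). Colec11, a soluble collectin, read 1.71, 0.24 and 1.54 FPKM in the floxed libraries, against 0.47, 0.48 and 3 FPKM in the knockout ones. Colq, the collagen tail of acetylcholinesterase, reached 1.11 FPKM in floxed replicate 1 and was at most 0.22 FPKM in the other 5 libraries.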
